A study of Mus musculus with 8 samples.

Results

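The genes described here encode the TGF-β ligands and the receptors that bind them. They were chosen by name, as *Tgfb1*, *Tgfb2*, *Tgfb3*, *Tgfbr1*, *Tgfbr2*, *Tgfbr3*, *Eng* and *Acvrl1*, and all 8 were found among the 54532 gene identifiers of the count tables. RNA was sequenced from primary cultures of brain pericytes, the contractile cells that wrap capillaries, from mice of wild-type (WT) genotype. For 48 h, 4 cultures received TGF-β1 at 5 μg/mL and the other 4 received vehicle, and the comparison asks how this cytokine changes gene expression in pericytes. The vehicle cultures carry the numbers 1 to 4 and the TGF-β1 cultures the numbers 5 to 8 in the labels, so they were compared as unpaired groups. The study's methods speak of 4 independent isolates treated with both agents, so a culture of each group may come from the same isolate, but no source used here says which. According to the study's methods the cells had been expanded over several passages outside the vessel wall, and a single cytokine, dose and time was sequenced.

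TGF-β ligands are secreted as latent dimers, in which the propeptide encloses the active ligand until integrins, proteases or mechanical pull release it. The freed ligand binds the type II receptor kinase TGFBR2, which then phosphorylates a type I receptor kinase, usually TGFBR1 (also called ALK5) and, in endothelial cells, also ACVRL1 (ALK1). TGFBR1 passes the signal to SMAD2 and SMAD3 and ACVRL1 to SMAD1, SMAD5 and SMAD9. TGFBR3 (betaglycan) and endoglin, the product of *Eng*, have no kinase activity of their own and present ligands to the signalling receptors. In brain vessels this pathway is known for its part in the exchange of signals between endothelial cells and pericytes, and mutations in *ENG* or *ACVRL1* cause hereditary hemorrhagic telangiectasia.

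The count tables held 45255235 to 47651397 counts per culture, a depth at which 3 counts correspond to 0.0630 to 0.0663 CPM (counts per 1000000 counts). Pairs of cultures of 1 group differed beyond counting noise, with a chi-square per degree of freedom of 2.25 to 3.93 on the counts as deposited. Low counts were mostly even numbers (68.5 to 70.2% of the counts from 1 to 20), and the same chi-square on halved counts was 1.14 to 2.10. Among the pericyte markers *Pdgfrb* stood at 202 ± 5.43 CPM and *Acta2* at 731 ± 30.1 CPM in the vehicle cultures (SD, n = 4), while *Kcnj8*, *Abcc9* and *Vtn*, which also mark brain pericytes, did not exceed 0.189 CPM in any culture.

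All 8 genes had enough counts to be tested, and 7 of them were differentially expressed at an adjusted p under 0.05 (edgeR quasi-likelihood test, Benjamini-Hochberg over 22544 genes). Of all genes tested, 41.3% passed. *Tgfb1*, *Tgfbr1* and *Acvrl1* were higher with TGF-β1, against a background of 20.9% of genes called higher. *Tgfb2*, *Tgfb3*, *Tgfbr2* and *Tgfbr3* were lower, against 20.3%. In the same 7 genes the values of the groups did not overlap, as in 37.9% of all genes tested (19.1% with the TGF-β1 cultures higher and 18.8% with them lower). The median absolute log2 fold change was 0.41 over the 8 genes and 0.18 over all genes tested. None of the 8 passed an absolute log2 fold change of 1.5, a limit named in the study's methods.

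**Figure D1:**
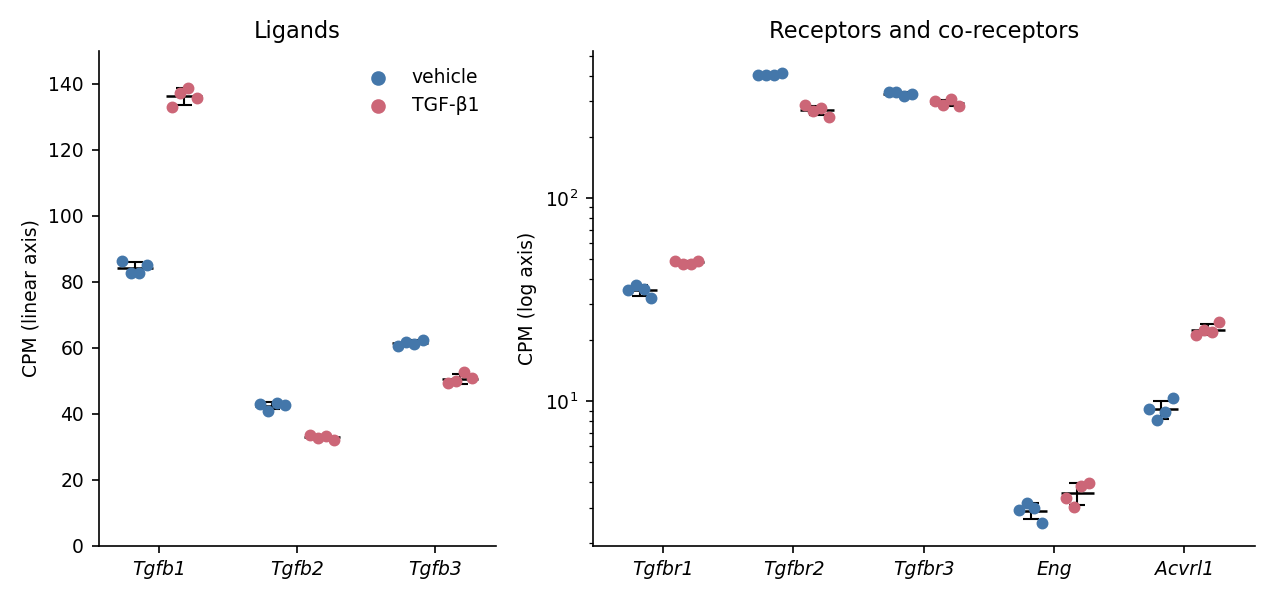
Expression in CPM of the ligand genes (left, linear axis) and of the receptor and co-receptor genes (right, log axis) in the vehicle (blue) and TGF-β1 (red) cultures; each point is 1 culture, and the bars give the mean and SD (n = 4). *Tgfb1*, *Tgfbr1* and *Acvrl1* lie higher and *Tgfb2*, *Tgfb3*, *Tgfbr2* and *Tgfbr3* lower with TGF-β1, and only the *Eng* groups overlap.

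The ligand genes moved in opposite directions. *Tgfb1* encodes the form that was added to the medium, but the added protein brings no RNA, so the counts report transcripts of the cells. Vehicle cultures 1 to 4 held 86.3, 82.7, 82.7 and 85.1 CPM of *Tgfb1*, and TGF-β1 cultures 5 to 8 held 133, 137, 139 and 136 CPM. Every treated culture was above every control, and the spread within each group was small (coefficient of variation 2.12% and 1.84%). The mean rose from 84.2 ± 1.78 to 136 ± 2.51 CPM (SD, n = 4 each), a log2 fold change of 0.69 ± 0.03 (SE, adjusted p = 6.04e-25, edgeR). *Tgfb1* (ENSMUSG00000002603) is annotated at chr7:25687002-25705077 on the plus strand of GRCm38.

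*Tgfb2* encodes a ligand that binds TGFBR2 poorly unless betaglycan presents it. Its level was 43.1, 40.9, 43.2 and 42.7 CPM in vehicle cultures 1 to 4, and 33.6, 32.8, 33.4 and 31.9 CPM in TGF-β1 cultures 5 to 8. The groups were separate, with all treated cultures lower. The mean fell from 42.5 ± 1.09 to 32.9 ± 0.763 CPM (log2 fold change -0.37 ± 0.04 SE, adjusted p = 4.87e-11, edgeR). The gene (ENSMUSG00000039239) is annotated at chr1:186622792-186705989 on the minus strand.

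*Tgfb3*, whose product is known for its role in palate fusion and scar-poor repair, was at 60.5, 61.6, 61.2 and 62.5 CPM in vehicle cultures 1 to 4 and at 49.3, 49.9, 52.7 and 50.7 CPM in TGF-β1 cultures 5 to 8. The highest treated culture, number 7, was still below the lowest control. The mean fell from 61.4 ± 0.832 to 50.7 ± 1.52 CPM (log2 fold change -0.28 ± 0.03 SE, adjusted p = 1.54e-09, edgeR). *Tgfb3* (ENSMUSG00000021253) is annotated at chr12:86056745-86079041 on the minus strand. Exons of *Gm37804* and *Gm48008* on the opposite strand cover 12.4% of its exon bases, and these held 117 and 59 counts in all cultures together, against 20735 for *Tgfb3*.

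The ligand genes are related in sequence, so their reads could in principle be confused. Over the aligned coding bases *Tgfb1* was identical to *Tgfb2* at 67.7% and to *Tgfb3* at 68.6% of positions, and the longest identical run was 10 and 15 bases. In the part that encodes the mature ligand (336 bases) the identity was 68.8 and 73.5%. The last 60 coding bases before the stop codon are shown because they encode part of the mature ligand, the region most alike between the genes. Letters in capitals differ from *Tgfb1* at the same position, 18 in *Tgfb2* and 13 in *Tgfb3* (GENCODE M21 transcripts, 5′ to 3′).
*Tgfb1*: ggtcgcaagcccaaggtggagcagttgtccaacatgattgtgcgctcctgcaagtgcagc
*Tgfb2*: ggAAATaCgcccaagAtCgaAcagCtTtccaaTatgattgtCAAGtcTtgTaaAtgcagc
*Tgfb3*: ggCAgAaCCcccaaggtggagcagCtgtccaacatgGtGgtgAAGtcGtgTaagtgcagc
Between any pair of the 3 ligand genes, no identical run in the aligned coding bases was longer than 15 bases. Of the 31-base words in the annotated transcripts, 2.34% of those of *Tgfb1*, 1.31% of those of *Tgfb2* and 9.96% of those of *Tgfb3* also occur in a transcript of another gene. Words were matched on either strand, so genes that overlap on the opposite strand count too, such as *Gm37804* and *Gm48008* at *Tgfb3*. Which genes held the shared words was not recorded.

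To compare the ligands with each other, CPM were divided by the length of all annotated exons of the gene in kilobases (CPM per kb). In vehicle cultures *Tgfb3* had the highest level, 18.2 ± 0.246 CPM per kb, followed by *Tgfb1* at 16.7 ± 0.353 and *Tgfb2* at 7.33 ± 0.188 (SD, n = 4). The ranges of the first 2 did not overlap (17.9 to 18.5 and 16.4 to 17.1 CPM per kb). Their order nevertheless depended on the length used, because *Tgfb1* has only 1 protein-coding transcript and its other annotated transcripts add much to the exon length. With the longest protein-coding transcript in place of all exons *Tgfb1* came first, at 38.7 CPM per kb, and *Tgfb3* stayed at 18.2 CPM per kb. *Tgfb2* was lowest with either length (8.30 CPM per kb with its longest protein-coding transcript).

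With TGF-β1 the order was *Tgfb1* at 27.0 ± 0.498 CPM per kb, *Tgfb3* at 14.97 ± 0.448 and *Tgfb2* at 5.68 ± 0.132, with no overlap between neighbours. *Tgfb1* was first whichever length was used. Its share of the summed ligand level went from 39.6 ± 0.527% to 56.7 ± 0.381% with all exons as the length, and from 59.4 to 74.5% with the longest protein-coding transcript. The share of *Tgfb3* went from 43.0 to 31.4% and that of *Tgfb2* from 17.4 to 11.9%, with all exons. With all exons, the summed level of the 3 ligands was 42.2 ± 0.475 CPM per kb in vehicle and 47.7 ± 0.903 CPM per kb in TGF-β1 cultures, with ranges that did not overlap. With the longest protein-coding transcript the sums were 65.2 ± 0.914 and 84.0 ± 1.53 CPM per kb, so the size of the difference depended on the length. Shares and sums were not tested, because they combine the chosen genes.

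A ratio of 2 genes within a culture does not depend on how the cultures are scaled to each other. The ratio of *Tgfb1* to *Tgfb3*, per kb, was 0.957, 0.901, 0.907 and 0.913 in vehicle cultures 1 to 4 and 1.81, 1.85, 1.77 and 1.80 in TGF-β1 cultures 5 to 8. It rose by 0.97 on the log2 scale (p = 0.0286, adjusted p = 0.0327 over 8 ratios, exact two-sided permutation test), and 0.0286 is the smallest p that 4 against 4 cultures allow. The ratio of *Tgfb1* to *Tgfb2* rose by 1.06, from 2.28 ± 0.0548 to 4.76 ± 0.148 (adjusted p = 0.0327, exact permutation test). That of *Tgfb2* to *Tgfb3* was 0.404 ± 0.0130 and 0.380 ± 0.0142, the groups overlapped, and the difference of -0.09 on the log2 scale did not pass (adjusted p = 0.0571, exact permutation test). The relative level of *Tgfb1* thus changed against both other ligands. Because *Tgfb1* was higher and *Tgfb2* and *Tgfb3* lower in every treated culture, its ratios to them had to separate. The p-values of those ratios therefore restate the results of the single genes. A change between *Tgfb2* and *Tgfb3* was not detected with 4 cultures a group.

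**Figure D2:**
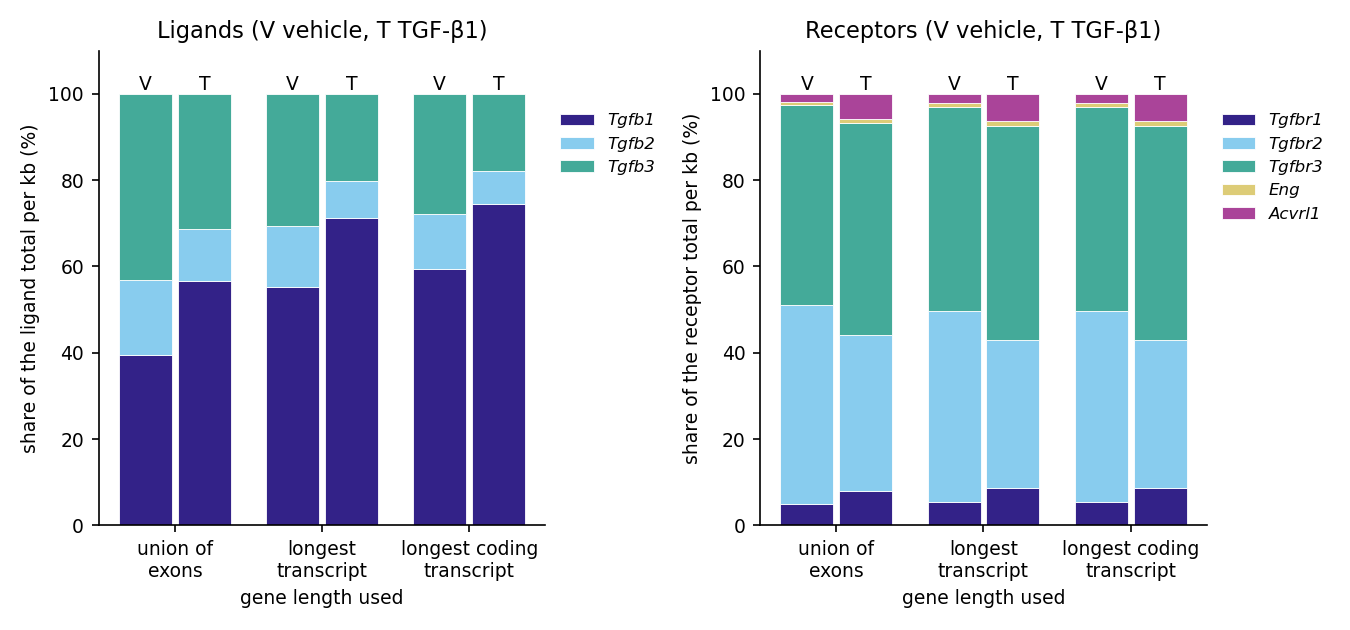
Share in percent of each ligand in the summed ligand level (left) and of each receptor in the summed receptor level (right), as means of 4 vehicle (V) or 4 TGF-β1 (T) cultures, for 3 definitions of gene length on the horizontal axis. The *Tgfb1* share is larger with TGF-β1 under each definition, although its size depends on the length (39.6 and 56.7% with all exons, 59.4 and 74.5% with the longest coding transcript), while the receptor shares change little with the length.

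Among the signalling receptors, the type I receptor genes rose and the type II receptor gene fell. In bulk RNA a lower level can mean fewer cells that express a gene or less RNA per cell, and these cannot be told apart. *Tgfbr2*, which encodes the kinase that binds the ligand first, was at 405, 405, 402 and 412 CPM in vehicle cultures 1 to 4 and at 287, 268, 277 and 251 CPM in TGF-β1 cultures 5 to 8. The groups were far apart, and the treated cultures varied more (coefficient of variation 5.57%) than the controls (1.02%). The mean fell from 406 ± 4.15 to 270.5 ± 15.1 CPM, that is by 33.4% (log2 fold change -0.59 ± 0.03 SE, adjusted p = 8.82e-19, edgeR). *Tgfbr2* (ENSMUSG00000032440) is annotated at chr9:116084293-116175360 on the minus strand, and no other gene of the annotation overlaps its exons.

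*Tgfbr1* encodes the type I kinase that phosphorylates SMAD2 and SMAD3. It was at 35.3, 37.3, 35.8 and 32.3 CPM in vehicle cultures 1 to 4 and at 48.9, 47.5, 47.4 and 49.1 CPM in TGF-β1 cultures 5 to 8. Vehicle culture 4 was the lowest, and every treated culture was above every control. The mean rose from 35.2 ± 2.09 to 48.2 ± 0.911 CPM, 1.37-fold (log2 fold change 0.45 ± 0.04 SE, adjusted p = 2.62e-13, edgeR). *Tgfbr1* (ENSMUSG00000007613) is annotated at chr4:47353222-47414931 on the plus strand.

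*Acvrl1*, the gene of the type I kinase ALK1, had the largest fold change of the 8 genes. Its levels were 9.16, 8.12, 8.88 and 10.4 CPM in vehicle cultures 1 to 4 and 21.2, 22.5, 21.9 and 24.4 CPM in TGF-β1 cultures 5 to 8, from 370 to 1149 counts. The lowest treated culture was well above the highest control. The mean rose 2.46-fold, from 9.14 ± 0.949 to 22.5 ± 1.39 CPM (log2 fold change 1.30 ± 0.06 SE, adjusted p = 3.83e-21, edgeR). Of all genes tested, 640 (2.84%) had a larger absolute log2 fold change. *Acvrl1* (ENSMUSG00000000530) is annotated at chr15:101128522-101145336 on the plus strand, with 2.98% of its exon bases covered by *Gm16031* on the opposite strand, a gene with 64 counts in all.

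*Acvrl1* and *Eng* are best known from endothelial cells, so the endothelial markers are given beside them. Of 13 endothelial markers 9 were tested, 3 were higher and 1 was lower with TGF-β1. Their summed level ranged from 484 to 495 CPM in vehicle and from 489 to 516 CPM in TGF-β1 cultures. *Cdh5* (VE-cadherin) made up most of that sum, at 375 ± 6.23 and 367 ± 12.9 CPM (adjusted p = 0.342, edgeR), whereas *Pecam1* (CD31) was at 1.11 ± 0.376 and 1.11 ± 0.121 CPM. *Tie1*, *Erg*, *Cldn5* and *Emcn* had too few counts to be tested, at no more than 0.298 CPM in any culture. The markers that were higher were *Flt1* (81.7 ± 1.32 to 99.2 ± 1.11 CPM), *Vwf* (1.58 ± 0.429 to 3.81 ± 0.679 CPM) and *Ptprb* (2.27 ± 0.279 to 7.62 ± 0.883 CPM). *Tek* was lower (2.71 ± 0.575 to 1.99 ± 0.164 CPM). *Kdr*, *Egfl7* and *Esam* did not pass, and neither did *Cdh5* and *Pecam1*. The part of endothelial cells in the values of *Acvrl1* and *Eng* was not tested.

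Per kb, the co-receptor genes differed in level by far more than either changed. *Tgfbr3* encodes betaglycan, which is needed by TGF-β2 in particular. It was at 332, 331, 318 and 325 CPM in vehicle cultures 1 to 4 and at 301, 287, 306 and 285 CPM in TGF-β1 cultures 5 to 8. The groups did not overlap, though vehicle culture 3 and TGF-β1 culture 7 came close. The mean fell by 9.59%, from 326 ± 6.51 to 295 ± 10.3 CPM, the smallest change among the genes that passed the test (log2 fold change -0.15 ± 0.02 SE, adjusted p = 3.54e-06, edgeR). *Tgfbr3* (ENSMUSG00000029287) is annotated at chr5:107106570-107289629 on the minus strand, and 4.54% of its exon bases are also exons of *Gm43422* on the same strand, which held 3768 counts in all.

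*Eng* was the least expressed of the 8 genes and the one whose change did not pass the test. Its levels were 2.93, 3.16, 2.99 and 2.51 CPM in vehicle cultures 1 to 4 and 3.34, 3.03, 3.82 and 3.98 CPM in TGF-β1 cultures 5 to 8, from 116 to 187 counts. TGF-β1 culture 6 was below vehicle culture 2, so the groups overlapped. The means were 2.90 ± 0.274 and 3.54 ± 0.438 CPM, with a log2 fold change of 0.29 ± 0.12 (SE), a 95% interval of 0.04 to 0.54 and an adjusted p of 0.0570 (edgeR), or 0.0893 with DESeq2. Leaving out vehicle culture 2 gave an adjusted p of 0.0409 and leaving out TGF-β1 culture 6 gave 0.0272 (edgeR), so the call rested on single cultures. The interval, which is not adjusted for the number of genes, began just above 0. *Eng* (ENSMUSG00000026814) is annotated at chr2:32646595-32682669 on the plus strand, where *Fpgs* on the opposite strand covers 1.51% of its exon bases. *Fpgs* held 8857 counts in all and *Eng* 1191, and as the strand setting of the counting is not given, reads from the shared bases cannot be told apart.

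**Figure D3:**
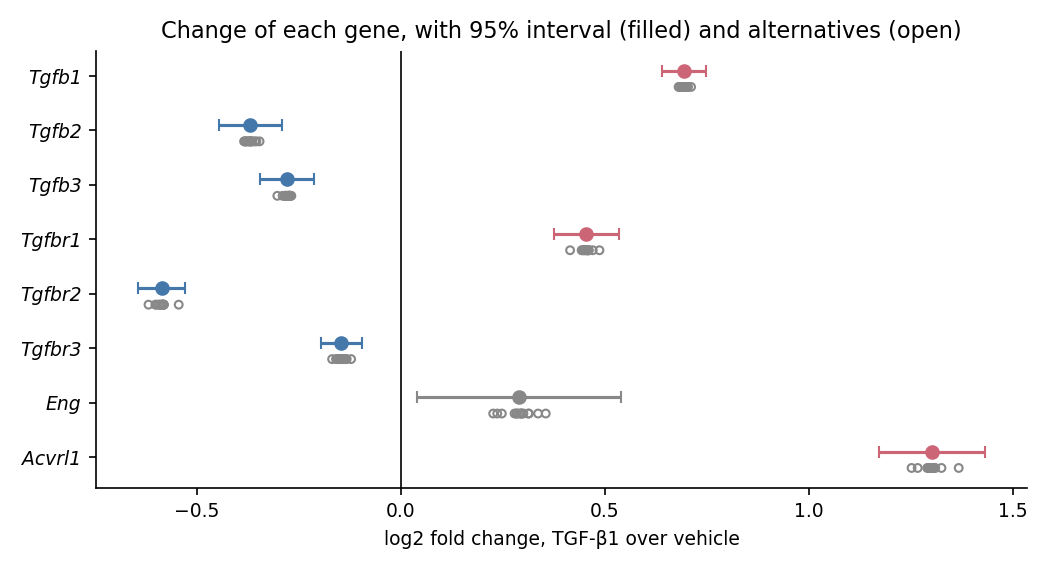
Log2 fold change of each gene, TGF-β1 over vehicle, with its 95% interval (filled points; red and blue passed the test as higher and lower, gray did not) and the values under the 15 alternatives (open points). *Acvrl1* has the largest change at 1.30, *Tgfbr2* the largest fall at -0.59, and *Eng* the widest interval.

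Per kb of exon, the receptor genes fell into tiers. In vehicle cultures *Tgfbr3* (49.9 ± 0.995 CPM per kb) and *Tgfbr2* (49.6 ± 0.507 CPM per kb) were the highest, and their ranges overlapped. *Tgfbr1* followed at 5.39 ± 0.320, *Acvrl1* at 2.14 ± 0.222 and *Eng* at 0.716 ± 0.0677 CPM per kb, with no overlap between these neighbours. Ranked among all genes tested by the mean over all 8 cultures, *Tgfbr3* and *Tgfbr2* stood at the 96.3 and 95.4 percentile of the level per kb, *Tgfbr1* at 66.7, *Acvrl1* at 55.6 and *Eng* at 27.3. The co-receptors were thus at opposite ends of the set, and the type I receptor genes well below the type II receptor gene. Read by its longest transcript, *Tgfbr3* was above *Tgfbr2* without overlap (52.2 to 54.5 and 49.6 to 50.9 CPM per kb).

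With TGF-β1 the order was *Tgfbr3* at 45.1 ± 1.58 CPM per kb, *Tgfbr2* at 33.0 ± 1.84, *Tgfbr1* at 7.38 ± 0.139, *Acvrl1* at 5.28 ± 0.325 and *Eng* at 0.875 ± 0.108, and no neighbours overlapped. *Tgfbr3*, level with *Tgfbr2* in vehicle by this length, was now above it, and the distance of *Tgfbr1* and *Acvrl1* to *Tgfbr2* shrank. *Tgfbr2* went from 46.05 to 36.03% of the summed receptor level, *Tgfbr1* from 5.00 to 8.06% and *Acvrl1* from 1.99 to 5.77%. The sum itself was 107.7 ± 1.22 CPM per kb in vehicle and 91.7 ± 2.91 CPM per kb in TGF-β1 cultures, with ranges that did not overlap.

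The ratio of RNA of the type I receptor gene *Tgfbr1* to that of the type II gene *Tgfbr2*, taken within each culture, was higher in the TGF-β1 cultures. For *Tgfbr1* over *Tgfbr2* the groups had to separate, because *Tgfbr1* was higher and *Tgfbr2* lower in every treated culture. *Tgfbr1* over *Tgfbr2*, per kb, was 0.109, 0.115, 0.112 and 0.0984 in vehicle cultures 1 to 4 and 0.214, 0.222, 0.215 and 0.245 in TGF-β1 cultures 5 to 8, a 2.06-fold rise (log2 1.04, adjusted p = 0.0327, exact permutation test). Between the type I receptors, *Acvrl1* over *Tgfbr1* rose from 0.401 ± 0.0670 to 0.715 ± 0.0403 (log2 0.85, adjusted p = 0.0327, exact permutation test). *Tgfbr1* nevertheless remained the more abundant of the type I receptor genes per kb in every culture.

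The ratios with co-receptors changed as well. *Tgfbr3* over *Tgfbr2* was 1.02, 1.02, 0.989 and 0.987 in vehicle cultures 1 to 4 and 1.31, 1.34, 1.38 and 1.42 in TGF-β1 cultures 5 to 8 (log2 0.44, adjusted p = 0.0327, exact permutation test). Both genes fell and *Tgfbr2* fell more. That vehicle cultures lay near a ratio of 1 depends on the length used, since with the longest transcripts *Tgfbr3* was above *Tgfbr2* per kb in vehicle too. *Eng* over *Tgfbr2* went from 0.0144 ± 0.00148 to 0.0266 ± 0.00425 (log2 0.87) and *Eng* over *Tgfbr3* from 0.0144 ± 0.00133 to 0.0194 ± 0.00247 (log2 0.43), each with an adjusted p of 0.0327 (exact permutation test). Without vehicle culture 4, the lowest for *Eng*, the latter missed the threshold (log2 0.37, adjusted p = 0.0653, exact permutation test). In both ratios the denominator fell, and *Eng* itself did not pass its own test.

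**Figure D4:**
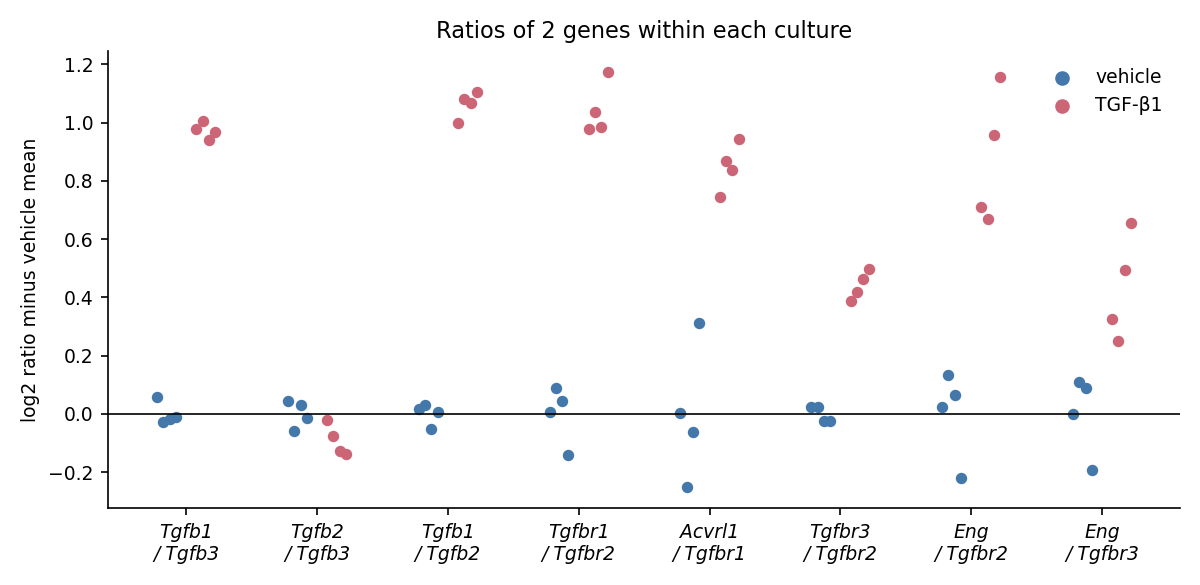
Log2 ratio of 2 genes within each culture, per kb, minus the mean of the vehicle cultures; each point is 1 vehicle (blue) or TGF-β1 (red) culture. The groups are separate for 7 ratios, with *Tgfb1* over *Tgfb2* (1.06) and *Tgfbr1* over *Tgfbr2* (1.04) farthest from 0, and overlap for *Tgfb2* over *Tgfb3*.

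The promoters of genes that rose and of genes that fell are shown for 1 ligand and 1 receptor each, as the 250 bases before the start site (RefSeq, GRCm38.p6, 5′ to 3′ on the strand of the gene). Promoter sequences were matched for *Tgfb1*, *Tgfb2*, *Tgfbr1*, *Tgfbr2* and *Eng*. None was matched for *Acvrl1*, which rose most, or for *Tgfb3* and *Tgfbr3*, which fell. Capitals mark CAGAC or its reverse complement GTCTG, the core of the Smad binding element, which 42.2% of 32851 promoters of this length hold on either strand. *Tgfb1* (chr7:25686752-25687001, plus strand) and *Tgfbr1* (chr4:47352972-47353221, plus strand) rose, and *Tgfb2* (chr1:186705990-186706239, minus strand) and *Tgfbr2* (chr9:116175364-116175613, minus strand) fell.
*Tgfb1*: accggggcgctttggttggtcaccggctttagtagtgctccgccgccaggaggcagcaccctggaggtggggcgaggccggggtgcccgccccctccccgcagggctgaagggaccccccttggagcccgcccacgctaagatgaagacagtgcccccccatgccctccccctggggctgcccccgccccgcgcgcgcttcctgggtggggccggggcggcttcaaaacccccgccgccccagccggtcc
*Tgfbr1*: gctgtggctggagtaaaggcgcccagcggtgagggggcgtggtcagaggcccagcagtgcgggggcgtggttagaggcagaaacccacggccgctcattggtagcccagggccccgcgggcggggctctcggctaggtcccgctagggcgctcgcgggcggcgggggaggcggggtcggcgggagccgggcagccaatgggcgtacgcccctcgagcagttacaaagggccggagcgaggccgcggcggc
*Tgfb2*: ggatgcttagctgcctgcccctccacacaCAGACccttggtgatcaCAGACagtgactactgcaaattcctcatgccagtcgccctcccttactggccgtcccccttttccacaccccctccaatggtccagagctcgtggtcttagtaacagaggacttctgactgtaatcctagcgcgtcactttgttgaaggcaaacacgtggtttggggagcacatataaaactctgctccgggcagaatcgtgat
*Tgfbr2*: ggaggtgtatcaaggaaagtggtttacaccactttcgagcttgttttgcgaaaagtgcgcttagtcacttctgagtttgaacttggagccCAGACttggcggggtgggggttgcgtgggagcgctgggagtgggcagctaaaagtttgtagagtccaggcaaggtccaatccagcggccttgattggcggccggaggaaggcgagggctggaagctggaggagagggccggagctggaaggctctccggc
The core was absent from the windows of *Tgfb1* and *Tgfbr1*, occurred at -221 and -204 in *Tgfb2* and at -160 in *Tgfbr2* (counted back from the RefSeq start site), and was found at 2 positions in *Eng*. The palindrome GTCTAGAC, held by 0.167% of promoters, was in none of these. Base composition differed too, with a G and C content of 75.2% in *Tgfb1* and 74.8% in *Tgfbr1*, and of 53.6% in *Tgfb2* and 58.4% in *Tgfbr2*. The GC box GGGCGG, searched on both strands and held by 32.7% of promoters, occurred 5 times in *Tgfb1*, 2 times in *Tgfbr1* and in neither *Tgfb2* nor *Tgfbr2*. *Tgfb2* was the only gene of the 5 with TATAAA (at -31, 12.4% of promoters) and with CACGTG (at -51, 6.02% of promoters). These matches describe the letters of the windows and do not show that a factor binds there. Whether motifs or base composition go with the direction of change was not tested with so few genes.

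The genes around the ligands and receptors were read from lists of the pathway, each against the background of 20.9% of genes called higher and 20.3% called lower. The lists were chosen with earlier results of these data known, and some genes stand on more than 1 of them. Their counts are therefore descriptions and not independent tests. Of 22 tested genes for ligand latency and activation, 15 were higher, 3 were lower and 4 did not pass (median log2 fold change 0.47, against -0.01 over all genes tested). The largest changes were those of *Itgb3*, the β3 subunit of an integrin that releases latent TGF-β (3.59 ± 0.157 to 13.3 ± 1.65 CPM, log2 1.89), *Ltbp2*, a protein of the latent TGF-β binding family (6.58 ± 0.893 to 24.4 ± 1.63 CPM, log2 1.89), and *Fbn1*, the microfibril protein fibrillin-1 (171 ± 6.82 to 602 ± 19.8 CPM, log2 1.81). Most genes of the list thus changed in the direction of *Tgfb1*, and against that of *Tgfb2* and *Tgfb3*.

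Of 21 tested receptor partners and modulators, 14 were higher and 2 lower, with a median log2 fold change of 0.16. *Pmepa1*, an inhibitor that keeps SMAD2 and SMAD3 from the receptor, rose from 163 ± 5.51 to 347 ± 18.9 CPM. *Smad7*, the inhibitory Smad that directs ubiquitin ligases to TGFBR1, rose from 48.8 ± 2.27 to 74.2 ± 1.69 CPM. *Ppp1r15a* (GADD34), a phosphatase subunit that acts with SMAD7 on the type I receptor, rose from 39.8 ± 1.66 to 56.6 ± 1.53 CPM. These changes, of 1.10, 0.60 and 0.51 on the log2 scale, were the largest of the list and had the same sign as that of *Tgfbr1*.

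The other type I and type II receptors bind further ligands of the superfamily, such as activins and bone morphogenetic proteins. Of 9 genes tested 4 were higher, none was lower and 5 did not pass (median log2 fold change 0.18). *Bmpr1b* rose from 1.88 ± 0.204 to 3.72 ± 0.292 CPM (log2 0.99 ± 0.13 SE), *Acvr1* from 54.0 ± 1.27 to 73.6 ± 2.60 CPM (log2 0.45 ± 0.03 SE) and *Bmpr2* from 328 ± 1.89 to 421 ± 8.88 CPM (log2 0.36 ± 0.02 SE). The genes called higher were thus the type I genes *Bmpr1b*, *Acvr1* and *Acvr1b* (log2 0.18) and the type II gene *Bmpr2*. The other type II genes, *Acvr2a* (log2 -0.02), *Acvr2b* (-0.13) and *Amhr2* (-0.62), did not pass, and neither did the type I genes *Acvr1c* and *Bmpr1a*. Of the TGF-β receptors the type I genes were higher and *Tgfbr2* lower.

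Of the 8 Smad genes 2 were higher, 3 lower and 3 did not pass (median log2 fold change -0.05). Beside *Smad7*, the largest changes were those of *Smad9* (27.5 ± 1.63 to 18.6 ± 0.852 CPM, log2 -0.56) and *Smad1* (58.0 ± 1.70 to 71.9 ± 2.16 CPM, log2 0.31), which both act downstream of ACVRL1. They moved in opposite directions while *Acvrl1* rose. Of 16 genes known to respond to TGF-β, 15 were higher and 1 was lower (median log2 fold change 0.83). The exception was *Tgfbi*, whose name comes from its induction by TGF-β and which fell from 230.0 ± 4.78 to 81.2 ± 10.3 CPM (log2 -1.50, adjusted p = 9.69e-06, edgeR). *Ltbp2*, which is also on the latency list, rose by 1.89 on the log2 scale.

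**Figure D5:**
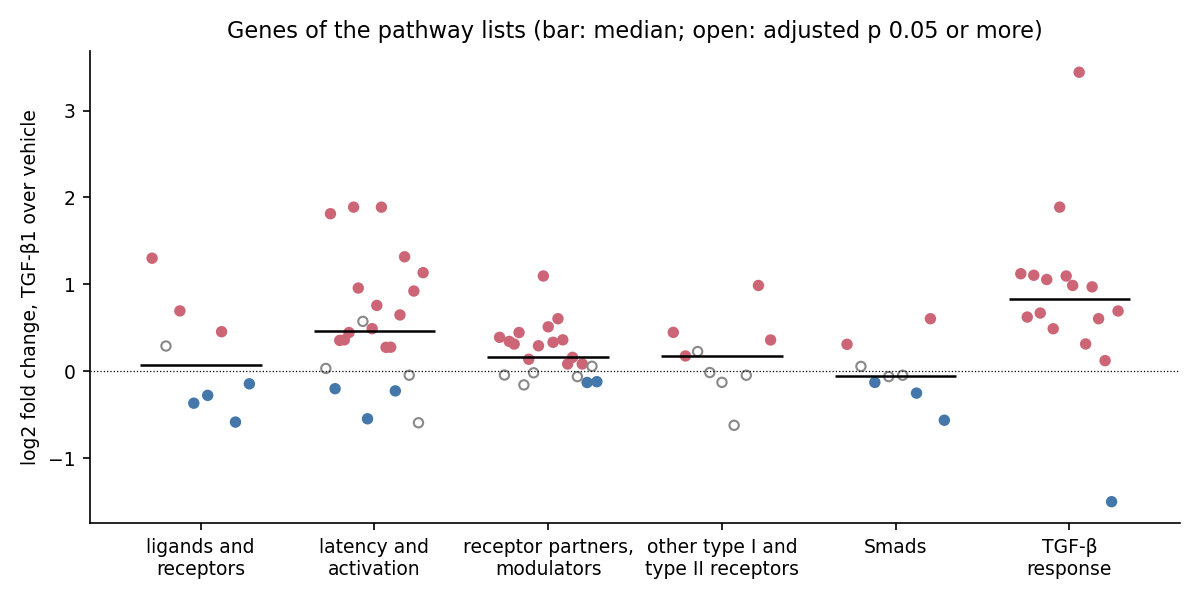
Log2 fold change of each tested gene, TGF-β1 over vehicle, for the 8 ligand and receptor genes and 5 pathway lists; filled points passed the test as higher (red) or lower (blue), open points did not, and the bar is the median. The ligand and receptor genes lie on both sides of 0 with a median of 0.07, whereas the TGF-β response list has 15 of 16 genes above 0.

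For the ligand and the receptor gene with the largest change, the genes whose pattern over the 8 cultures was closest were sought among 16494 genes of at least 1 CPM on average, by the Euclidean distance of centred log2 CPM. Closest to *Tgfb1* were *Gab2* (distance 0.0627), *Hivep2* (0.0868) and *Nectin1* (0.0907), which rose by 0.68, 0.67 and 0.71 on the log2 scale. Closest to *Acvrl1* were *Mfap3l* (0.180), *Pdk4* (0.186) and *Klhl30* (0.230), which rose by 1.25, 1.29 and 1.38. With 2 groups of 4 cultures, the measure mainly finds genes with a fold change of the same size.

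Markers of other cell types were read for the cultures as a whole. The fibroblast list summed to 3815 to 3979 CPM in vehicle and to 5335 to 5578 CPM in TGF-β1 cultures, with 2 of 9 tested genes higher and 4 lower. Most of that sum was *Col1a1* (1588 ± 36.8 to 2525 ± 49.5 CPM) and *Col1a2* (2121 ± 44.1 to 2852 ± 62.7 CPM), while *Scara5* fell from 68.8 ± 2.25 to 5.53 ± 1.37 CPM and *Ptgds* from 31.2 ± 3.26 to 3.30 ± 0.562 CPM. The pericyte list summed to 1277 to 1342 and 1473 to 1492 CPM, with 4 of 9 tested genes higher and 2 lower. *Rgs5* fell from 8.62 ± 0.466 to 2.13 ± 0.245 CPM and *Anpep* from 40.5 ± 3.52 to 30.1 ± 1.40 CPM. *Cspg4* (82.9 ± 2.50 to 169 ± 5.62 CPM), *Mcam* (5.25 ± 1.07 to 10.1 ± 0.344 CPM), *Pdgfrb* (202 ± 5.43 to 291 ± 2.58 CPM) and *Cd248* (157 ± 2.11 to 180 ± 2.69 CPM) rose. *Acta2* (731 and 715 CPM), *Notch3* (88.5 and 85.9 CPM) and *Des* (0.685 and 0.623 CPM) did not pass. The astrocyte list summed to 251 to 263 and 227 to 239 CPM, with 2 of 7 tested genes higher and 2 lower. The macrophage and microglia list summed to 109 to 114 and 109 to 111 CPM, with 1 of 8 tested genes higher. *Tmem119* made up most of it, at 102 ± 2.23 and 98.5 ± 1.21 CPM, no other gene of the list exceeded 6.55 CPM in any culture, and *C1qb* had 0 counts in all. The part of such cells in the changes of the ligand and receptor genes was not tested.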

How the data were processed

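Total RNA of 4 vehicle and 4 TGF-β1 cultures was sequenced with an Illumina stranded total RNA kit. The authors deposited raw counts per gene, 1 library per culture, without normalization. By the study's methods and the submitters' processing notes, reads were aligned to mm10 with STAR 2.7.5c, PCR duplicates were removed with SAMtools 1.15 and reads were counted with featureCounts 2.0.3. Which annotation release and strand setting were used, and how reads on overlapping genes were treated, is not given in the sources used here. If both mates of a pair were counted, the independent fragments are fewer than the counts.

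A table of gene names paired 54409 of 54532 identifiers with a symbol. Gene positions and exon lengths came from GENCODE M21 on GRCm38, which held 54495 of the identifiers. Counts were tested with edgeR 4.0.16 in R 4.3.3 (filterByExpr, TMM, robust quasi-likelihood test, all 8 cultures, no covariate), with Benjamini-Hochberg adjustment over 22544 genes and a threshold of 0.05. CPM are TMM-scaled, and SDs are over cultures. Per-kb levels used the union of annotated exons. Each ratio was tested by exact permutation of its log2 values (70 assignments, two-sided), adjusted over 8 ratios. Where cultures were split from 1 isolate, p-values measure only the spread between those cultures. In simulated data for 22544 genes edgeR recovered 61 of 100 genes changed by 0.5 and 88 of 100 changed by 1 on the log2 scale, with 7 false calls. DESeq2 1.42.0 recovered 59 and 86, with 7 false calls. Only these genes were changed in the simulation, as many up as down, and the cultures were drawn independently. In the data 41.3% of genes were called and cultures may share isolates, so the simulated rates are not the error rates of the tests here.

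The ligand and receptor genes and all lists were chosen with earlier results of these data known. The text names all 8 genes, the 3 largest called changes of each pathway list, and the 3 genes with the nearest pattern to the most changed ligand and receptor. A gene that falls under this rule is not reported here. The cell type markers named beside these were chosen after their values were seen. Alternatives were DESeq2, other scalings and filters, halved counts, other gene lengths and leaving out each culture. The promoters are from RefSeq.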

Additional observations from a re-analysis of the deposited data

How the results depend on the processing

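Over 15 alternatives each, *Tgfb1*, *Tgfb2*, *Tgfb3*, *Tgfbr1*, *Tgfbr2*, *Tgfbr3* and *Acvrl1* kept their direction and stayed past the threshold, and no value of any gene or ratio reversed. The number of genes called ranged from 8559 to 9311. The scaling alternatives moved the median of all genes by less than 0.1 on the log2 scale (-0.0111 with library totals, the most). *Eng* passed with counts halved (log2 0.30, adjusted p = 0.0442, edgeR) and ranged from 0.23 to 0.36 when 1 culture was left out (adjusted p 0.0272 to 0.180). Under the same omissions *Eng* over *Tgfbr3* ranged from 0.36 to 0.49. The shares moved with gene length by construction. With the longest transcript, or the longest protein-coding transcript (added after the data were seen), *Tgfb1* took 55.3 or 59.4% of the ligand level in vehicle and 71.2 or 74.5% with TGF-β1, *Tgfb2* 14.03 or 12.7% and 8.65 or 7.65%, and *Tgfb3* 30.7 or 27.9% and 20.1 or 17.8%. For the receptors both lengths gave 5.40 and 8.60% for *Tgfbr1*, 44.3 and 34.3% for *Tgfbr2*, 47.3 and 49.7% for *Tgfbr3*, 2.22 and 6.36% for *Acvrl1*, and 0.748% for *Eng* in vehicle. No paired analysis was possible because the labels give the groups no shared culture numbers, although cultures of both groups may share isolates. *Eng*, with 116 to 187 counts per culture, has the least depth behind it of the 8 genes. Gene counts do not separate transcripts or report protein.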
